A study of Homo sapiens with 6 samples.

Results

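The nuclear-encoded subunit genes of the mitochondrial respiratory chain were compared between cells sorted by their surface NRP2. They were taken by name: protein-coding genes off the mitochondrial chromosome with an NDUFA, NDUFB, NDUFC, NDUFS or NDUFV number, SDHA to SDHD, the UQCR genes, the numbered COX4 to COX8 genes and the ATP5 genes, without NDUFA4. The rule took 81 of the 27958 genes in the table, with 36 of complex I, 4 of complex II, 9 of complex III, 11 of complex IV and 21 of complex V. The rule used names and no measured value. Some subunit genes have names of another form, COX4I1 among them, and the rule took no COX4 gene. Such genes are described at the end in a separate list with some related genes. The ATP5 names also took genes that do not encode a subunit, such as the inhibitor gene ATP5IF1.

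The cells were labelled PC3, an androgen-independent line from a human prostate cancer metastasis to bone. They had been stained with an antibody to NRP2 (neuropilin-2, a membrane protein that binds semaphorins and vascular endothelial growth factors) and split by flow cytometry into an NRP2-high and an NRP2-low population. Both populations received no other treatment that the labels name, were then grown for at most 2 weeks, and gave 3 RNA libraries each, taken at different passages. The libraries carry S numbers, which are S38, S39 and S40 for NRP2-high and S35, S36 and S37 for NRP2-low. The labels do not state whether a group's libraries came from separate sorts or cultures, so the p-values cover only the spread among these 6 samples, part or all of which may be technical.

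Each library held 17551302 to 30726744 reads, with the lowest total in S37. NRP2 itself was at 16.6 to 48.1 TPM in the NRP2-high and 2.71 to 7.55 TPM in the NRP2-low libraries, where TPM is a length-scaled share of each library. KRT8, KRT18, VIM and CD44, which PC3 cells express, were at 62.9 TPM or more in every library. KRT19 and EPCAM, from the same list of markers of the line and its epithelial origin, were at most at 0.0783 and 0.0726 TPM. These low values go against the label, and the identity of the line was not tested. Markers of leukocytes, fibroblasts and endothelium were at most at 1.52 TPM, the value of CD14 in S37. Library S37 stood apart, with 31.0% of its TPM on mitochondrially encoded genes against 11.1% to 18.7% in the other 5 libraries.

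The respiratory chain of the inner mitochondrial membrane moves electrons from NADH and succinate to oxygen. Complex I oxidises NADH and complex II succinate, both pass electrons to ubiquinone, complex III hands them on to cytochrome c, and complex IV reduces oxygen. Complexes I, III and IV pump protons, and complex V, the ATP synthase, uses the gradient to make ATP. Complexes I, III, IV and V each join subunits from the nuclear and the mitochondrial genome, whereas complex II is built from nuclear genes alone. Transcription of the nuclear genes is known to involve NRF1, NRF2 (an ETS factor), YY1 and the estrogen-related receptors.

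Promoter sequences of 65 of the 81 genes were found in RefSeq (GRCh38.p14), each running from 250 bases before to 50 bases after the annotated start. A total of 4 motifs were searched on both strands: CGCANGCG for NRF1, CCGGAAG for ETS factors, AAGATGGCG for YY1 and AAGGTCA for estrogen-related receptors. CGCANGCG occurred in 24 of the 65 promoters (36.9%) and in 17.2% of the 11761 promoters of the table. CCGGAAG occurred in 29.2% against 17.3%, AAGATGGCG in 12.3% against 3.51%, and AAGGTCA in 13.8% against 2.67%. At least 1 of the motifs was present in 40 of the 65 (61.5%) and in 34.8% of all promoters. A match describes the letters only and is not a binding site. The promoters printed are those of SDHA, which had the lowest log2 fold change between the groups, of SDHB, the most abundant gene of the same enzyme, and of ATP5MD and NDUFS1, genes with a short and a long coding sequence that lay on opposite sides in S37. Capitals mark motif matches on either strand, and CTTCCGG is CCGGAAG read on the other strand. All are written 5′ to 3′ on the strand of the gene.

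SDHA (chr5:218070-218369, plus strand): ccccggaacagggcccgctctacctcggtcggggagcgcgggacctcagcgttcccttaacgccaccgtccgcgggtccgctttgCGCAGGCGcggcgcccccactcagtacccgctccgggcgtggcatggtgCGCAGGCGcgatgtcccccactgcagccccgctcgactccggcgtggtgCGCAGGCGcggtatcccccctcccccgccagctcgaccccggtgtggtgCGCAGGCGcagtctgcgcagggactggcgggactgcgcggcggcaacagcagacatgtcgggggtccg

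SDHB (chr1:17053983-17054282, minus strand): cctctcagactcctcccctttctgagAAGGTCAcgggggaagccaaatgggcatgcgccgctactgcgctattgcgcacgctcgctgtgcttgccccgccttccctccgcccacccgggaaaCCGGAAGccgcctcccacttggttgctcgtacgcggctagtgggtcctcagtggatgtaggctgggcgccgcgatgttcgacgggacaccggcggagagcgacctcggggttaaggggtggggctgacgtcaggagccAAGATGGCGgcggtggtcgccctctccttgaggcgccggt

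ATP5MD (chr10:103396426-103396725, minus strand): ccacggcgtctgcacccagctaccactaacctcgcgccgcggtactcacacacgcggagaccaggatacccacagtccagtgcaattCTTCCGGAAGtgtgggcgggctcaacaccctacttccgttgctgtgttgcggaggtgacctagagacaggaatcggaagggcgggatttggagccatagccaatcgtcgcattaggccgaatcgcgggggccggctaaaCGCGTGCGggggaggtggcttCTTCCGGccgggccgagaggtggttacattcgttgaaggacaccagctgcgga

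NDUFS1 (chr2:206159395-206159694, minus strand): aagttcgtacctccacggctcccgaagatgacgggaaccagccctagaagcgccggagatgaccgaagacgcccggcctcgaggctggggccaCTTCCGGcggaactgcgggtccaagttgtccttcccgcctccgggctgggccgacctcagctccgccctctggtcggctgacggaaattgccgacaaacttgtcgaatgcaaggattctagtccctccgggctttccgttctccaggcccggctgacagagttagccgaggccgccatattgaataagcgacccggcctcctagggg

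The SDHA promoter held 4 copies of CGCANGCG, each starting 49 bases after the one before. The SDHB promoter held CCGGAAG, AAGATGGCG and AAGGTCA, the ATP5MD promoter CGCANGCG and CCGGAAG, and the NDUFS1 promoter CCGGAAG.

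Of the 81 genes, 76 reached a TPM of 1 in 3 or more libraries and were tested. None of the 76 differed between NRP2-high and NRP2-low cells at a limma adjusted p under 0.05, in either direction. Of all 15214 tested genes, 53 were called higher (0.348%) and 74 lower (0.486%) in NRP2-high cells. At shares this small, a count of 0 among 76 genes does not set them apart from all genes. At an unadjusted p under 0.05 there was 1 respiratory chain gene, SDHA, against 1065 of all genes tested (7.00%). The smallest adjusted p among the 76 was 0.341, again that of SDHA. A log2 fold change here is NRP2-high minus NRP2-low on the log2(TPM + 1) scale, so a value below 0 is lower in NRP2-high. It was above 0 for 29 and below 0 for 47 of the genes, with a median of -0.05 against 0.10 over all genes tested. Without S37 the medians were 0.00 for the respiratory chain genes and -0.00 for all genes, and 38 of the 76 were below 0.

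The range ran from -0.62 for SDHA to 0.35 for NDUFS1. On the log2(TPM + 1) scale, the 95% confidence interval stayed within a 1.5-fold change either way for 54 of the 76 genes. It stayed within a 2-fold change for 75, with SDHA as the exception. That scale understates changes of low genes such as NDUFA13 and NDUFV2. The median within-group SD of log2(TPM + 1) was 0.14 for these genes against 0.25 over all tested nuclear protein-coding genes, so libraries of a group lay closer together. Their median level was 96.7 TPM against 25.3 TPM. In bulk RNA, fewer cells with a transcript and less of it per cell cannot be told apart.

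**Figure D1:**
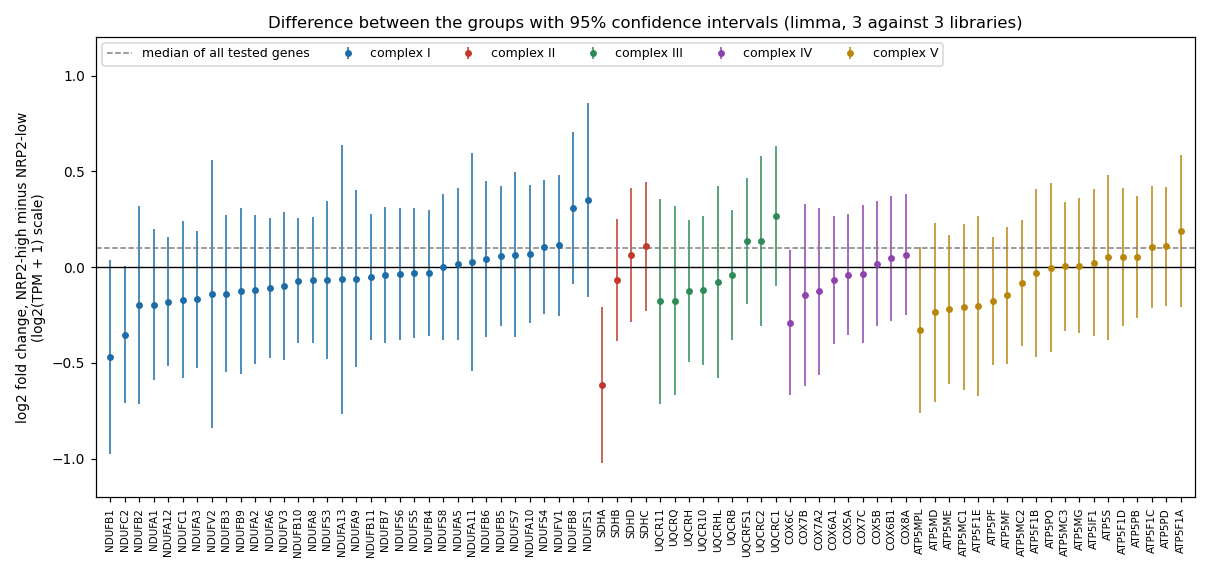
Log2 fold change (NRP2-high minus NRP2-low, log2(TPM + 1) scale) of 75 of the 76 tested genes, sorted within complexes I to V, with 95% confidence intervals from limma on 3 against 3 libraries, and a dashed line at the median of all tested genes (0.10). SDHA has the lowest point (-0.62) and NDUFS1 the highest (0.35).

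**Figure D2:**
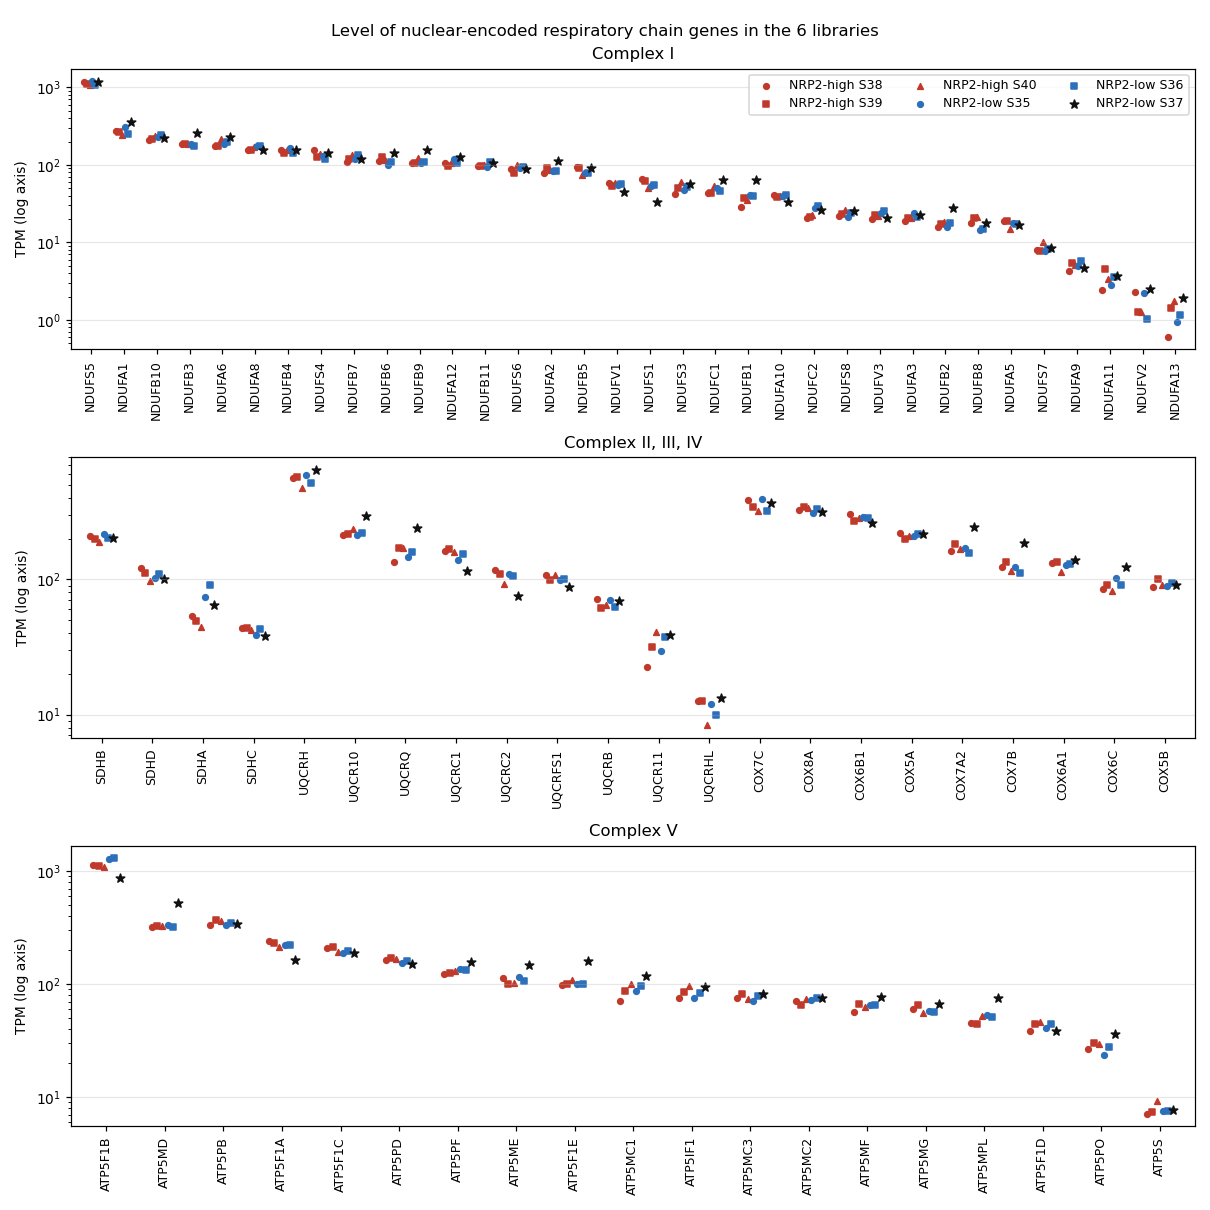
TPM on a log axis for 75 of the 76 tested genes in the 6 libraries, by complex and sorted by mean level. NRP2-high libraries are red, NRP2-low libraries S35 and S36 blue and S37 a black star, and for most genes the symbols lie close together.

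The 35 tested complex I genes spanned mean levels from 1.29 TPM for NDUFA13 to 1141 TPM for NDUFS5, and their median log2 fold change was -0.06. NDUFS5, an accessory subunit, was the most abundant, with 1179.6, 1120.2 and 1085 TPM in S38, S39 and S40 against 1200.2, 1086 and 1172 TPM in S35, S36 and S37. The groups overlapped (log2 fold change -0.03, SE 0.15, limma adjusted p = 0.979).

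The 7 core subunits carry the flavin, the iron-sulfur clusters and the ubiquinone site, and their median was 0.07, with 5 of 7 above 0. The other 28 tested genes of complex I had a median of -0.07, with 21 below 0. Over all 15214 genes tested the median was 0.10, with 10083 above and 5131 below 0, so the core genes were not raised against all genes. The sign of the core median depended on the libraries and the scaling: it was -0.04 without S40, and -0.02 when TPM was rescaled without the mitochondrial chromosome. NDUFS1, the largest iron-sulfur subunit of the NADH-oxidising arm, was at 65.5, 62.8 and 50.6 TPM in NRP2-high and 53.8, 54.7 and 33.6 TPM in NRP2-low libraries. Its S40 value lay below S35 and S36, so the groups overlapped (log2 fold change 0.35, SE 0.22, limma adjusted p = 0.873). Without S37 the log2 fold change of NDUFS1 was 0.13. NDUFV1, the subunit that binds NADH and flavin, was at 53.3 to 58.7 TPM in NRP2-high and 45.0 to 57.5 TPM in NRP2-low libraries. The lowest of the 6 libraries for NDUFV1 was S37.

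Among the accessory subunits, NDUFB1 and NDUFC2 of the membrane arm had the lowest log2 fold changes and NDUFB8 of the same arm the highest. NDUFB1 was at 28.3, 37.8 and 35.3 TPM in NRP2-high and 41.0, 39.5 and 63.2 TPM in NRP2-low libraries. All NRP2-high values lay below all NRP2-low values, and S37 was the highest (log2 fold change -0.47, SE 0.22, limma adjusted p = 0.753). Without S37 it was -0.26. NDUFC2 was at 20.9, 21.2 and 22.8 TPM against 27.5, 29.9 and 26.4 TPM. Here too the groups did not overlap, and S37 was the lowest of its group (log2 fold change -0.35, SE 0.16, limma adjusted p = 0.718). NDUFB8 was at 17.8, 20.8 and 21.1 TPM against 14.6, 15.1 and 17.9 TPM. S38 lay just below S37, so the groups overlapped (log2 fold change 0.31, SE 0.17, limma adjusted p = 0.864). Of the exon bases of NDUFB8, 33.8% are shared with another annotated gene on the same strand.

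A few complex I genes were listed at levels far below the others. NDUFV2, a core subunit with an iron-sulfur cluster, was at 1.01 to 2.51 TPM and rested on 175 reads, whereas NDUFV2P1, a processed pseudogene named after it, was at 11.3 to 16.8 TPM. NDUFA13 was at 0.608 to 1.92 TPM on 126 reads, and NDUFA7, which was not tested, at 0 to 1.27 TPM on 38 reads. These genes share 28.4% (NDUFV2), 21.0% (NDUFA13) and 32.3% (NDUFA7) of their exon bases with another annotated gene on the same strand, RPS28 among them for NDUFA7. How the counting treated reads that fit more than 1 gene is not given in the sources used here, so low values of these genes are uncertain.

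Complex II, succinate dehydrogenase, held the gene with the largest difference. SDHA, the flavoprotein that oxidises succinate (ENSG00000073578.16, chr5:218241-256679, plus strand, GRCh38), measured 53.6, 49.6 and 44.3 TPM in the NRP2-high libraries (S38, S39, S40 in this order throughout) and 74.0, 90.9 and 64.3 TPM in the NRP2-low ones (S35, S36, S37). All 3 NRP2-high values lay below all 3 NRP2-low values. Group means were 49.2 ± 4.68 against 76.4 ± 13.5 TPM (SD, n = 3 each). This gave a log2 fold change of -0.62 (SE 0.18, 95% interval -1.02 to -0.21, limma unadjusted p = 0.00786, limma adjusted p = 0.341), which did not pass the test. It passed in 2 of the alternative fits, median log ratio scaling (-0.74, limma adjusted p = 0.0373) and voom on recovered reads (-0.76, limma adjusted p = 0.0201). With TPM rescaled without the mitochondrial chromosome it was -0.71 (limma adjusted p = 0.0551). With 1 library left out it ran from -0.48 without S36 to -0.73 without S37, and the adjusted p ran from 0.0201 to 0.927 over all alternatives.

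The other 3 subunit genes of complex II lay near 0. SDHB, the iron-sulfur subunit and the most abundant of the complex, was at 208, 198 and 187 TPM against 217, 203 and 202 TPM (log2 fold change -0.07, SE 0.14, limma adjusted p = 0.940). SDHC and SDHD, which anchor the enzyme in the membrane, had log2 fold changes of 0.11 (95% interval -0.23 to 0.45) and 0.06 (95% interval -0.29 to 0.41). The groups of all 3 genes overlapped. SDHAP1, a transcribed pseudogene that is a near copy of SDHA, was at 18.9, 25.9 and 24.8 TPM against 22.7, 23.8 and 26.0 TPM, with a log2 fold change of -0.07. Reads of SDHA and of its copies may have been split between them, so the level of SDHA is uncertain.

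**Figure D3:**
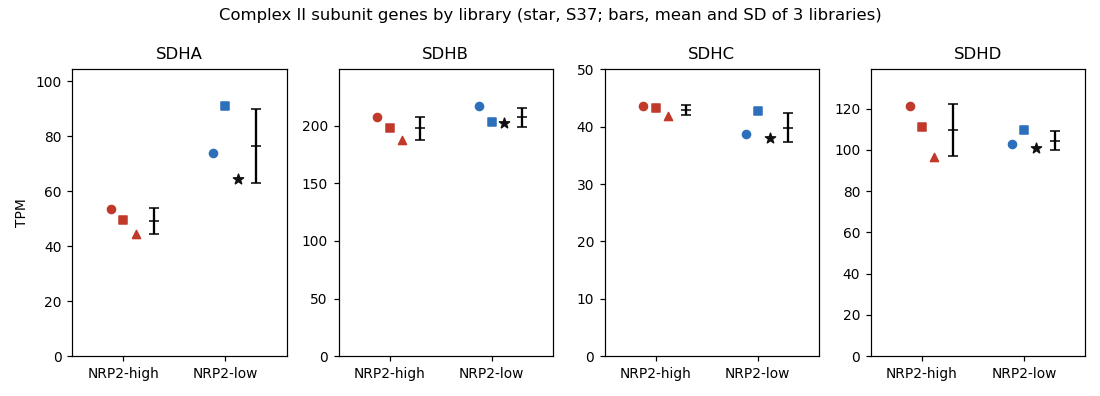
TPM of SDHA, SDHB, SDHC and SDHD in each library, with the mean and SD of 3 libraries beside the points. For SDHA the NRP2-high libraries sit between 44.3 and 53.6 TPM and the NRP2-low libraries between 64.3 and 90.9 TPM, and the groups of the other 3 genes overlap.

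Complex III genes had a median log2 fold change of -0.08 over 9 genes. UQCRH, the hinge protein, was the most abundant, at 564, 569.5 and 474 TPM against 592, 516 and 646 TPM (log2 fold change -0.12, SE 0.16, limma adjusted p = 0.909). Its intronless relative UQCRHL was at 8.36 to 13.2 TPM, and reads of the pair may be shared. UQCRC1, a core protein of the matrix side, was at 161, 166 and 160.2 TPM in NRP2-high and 138, 155 and 115 TPM in NRP2-low libraries. The groups of UQCRC1 did not overlap, and S37 was the lowest library (log2 fold change 0.27, SE 0.16, limma adjusted p = 0.872). Without S37 its log2 fold change was 0.15.

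Complex IV genes had a median of -0.04 over 9 tested genes. COX7C was the most abundant, at 386, 342 and 320.1 TPM against 390.1, 319 and 366 TPM. The groups overlapped closely (log2 fold change -0.04, SE 0.16, limma adjusted p = 0.977, and above 0 without S40 or S35). Of the subunits with tissue isoforms, the widely expressed COX6A1, COX6B1, COX7A2, COX7B and COX8A were at 112 to 345 TPM in every library. The testis isoform gene COX6B2 rested on 12 reads over all libraries and COX8C on 3. The log2 fold changes of the 5 widely expressed genes lay between -0.14 for COX7B and 0.06 for COX8A, with groups that overlapped. COX6C was at 81.4 to 90.3 TPM in NRP2-high and 90.3 to 124 TPM in NRP2-low libraries, just without overlap (log2 fold change -0.29, limma adjusted p = 0.864).

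Complex V genes had a median of -0.00 over 19 tested genes. ATP5F1B, the catalytic beta subunit, was at 1134, 1106 and 1081 TPM against 1270.5, 1301 and 873 TPM. S35 and S36 lay above and S37 below all NRP2-high libraries (log2 fold change -0.03, SE 0.19, limma adjusted p = 0.986). Without S37 it was -0.22. The genes ATP5MC1, ATP5MC2 and ATP5MC3 encode the same mature c subunit of the rotor ring. Their log2 fold changes were -0.21 (95% interval -0.64 to 0.22), -0.08 (95% interval -0.41 to 0.24) and 0.00 (95% interval -0.33 to 0.34). With 1 library left out, ATP5MC1 ran from -0.33 without S40 to -0.07 without S38, and it was -0.09 without S37. The levels of the 3 genes were close, at 70.8 to 117 TPM, 64.8 to 75.8 TPM and 70.4 to 82.7 TPM over the 6 libraries. ATP5IF1, the inhibitor that blocks ATP hydrolysis, was at 75.0, 84.5 and 97.1 TPM against 75.0, 83.0 and 93.9 TPM. The groups of ATP5IF1 covered the same range (log2 fold change 0.02, SE 0.17, limma adjusted p = 0.988). The signs of ATP5MC3 and ATP5IF1, both near 0, were negative under other scalings, which shift all genes of a library alike.

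Groups without overlap were counted over all 76 genes. NRP2-high lay above NRP2-low for 2 genes, UQCRC1 and the stalk subunit gene ATP5PD, which is 2.63%, against 8.83% of all genes tested. It lay below for 6 genes, NDUFB1, NDUFC2, NDUFA3, SDHA, COX6C and ATP5PF, which is 7.89%, against 3.14% of all genes. With S37 left out the shares were 5.26% above and 11.8% below, against 10.8% and 11.4% of all genes. Leaving out 1 of the other 5 libraries at a time gave 2 to 9 of the 76 above and 7 to 13 below, with the highest counts above without S40 (9, which is 11.8%) and below without S40 or S36 (13, which is 17.1%). Over all genes tested the same fits gave 11.6% to 25.3% above, with 25.3% without S40, and 4.65% to 9.70% below. After rescaling without the mitochondrial chromosome, 0 of the 76 lay above and 6 below, against 8.0% and 5.33% of all genes. After median log ratio scaling, 1 lay above (1.32%) and 6 below, against 6.59% and 7.11% of all genes.

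Pseudogenes named after the respiratory chain genes gave 55 further rows for 33 of the genes, 10 of them with a mean of at least 5 TPM. ATP5F1AP10, a processed pseudogene of ATP5F1A on chromosome 9 that was chosen after its values were seen, was at 61.4, 55.0 and 50.0 TPM in NRP2-high and 22.7, 24.0 and 14.8 TPM in NRP2-low libraries. It rose in NRP2-high (log2 fold change 1.42, SE 0.21, limma adjusted p = 0.0221). Without S38, S39, S40 or S36 the adjusted p was 0.0994, 0.113, 0.0581 or 0.0630 in turn, with a log2 fold change of 1.34 to 1.54, and without a filter on low values it was 0.0805. ATP5F1AP7, a processed pseudogene of the same gene on chromosome 9 and likewise chosen after its values were seen, was at 8.01, 9.39 and 5.22 TPM in NRP2-high and 1.90, 1.47 and 0.841 TPM in NRP2-low libraries. It rose in NRP2-high (log2 fold change 1.82, SE 0.28, limma adjusted p = 0.0253). Without S38, S39, S36 or S37 the adjusted p was 0.106, 0.134, 0.112 or 0.0870 in turn, with a log2 fold change of 1.64 to 1.85, and without a filter on low values it was 0.139. The parent gene ATP5F1A, the alpha subunit of the ATP synthase, was at 242, 232 and 214 TPM against 222, 224 and 163 TPM (log2 fold change 0.19, limma adjusted p = 0.895), and reads of these genes may have been split.

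The summed level of all 81 genes differed little between libraries, at 10746, 10715 and 10564 TPM in S38, S39 and S40 and 10989, 10809 and 11477 TPM in S35, S36 and S37. S37 was the highest library, 1.05 times the mean of S35 and S36. The sum of the 13 mitochondrially encoded mRNA genes was 99832, 147773 and 173887 TPM in NRP2-high and 131412, 141878 and 291134 TPM in NRP2-low libraries. There S37 was 2.13 times the mean of S35 and S36, and each of the 13 genes was highest in S37. The mitochondrially encoded genes were all below 0 in the comparison of the groups, with a median log2 fold change of -0.41, and none passed the test. Without S37, the summed values of S35 and S36 lay within the range of the NRP2-high libraries. The ratio of mitochondrially encoded to nuclear-encoded TPM of complex I was 10.2, 14.9 and 16.9 in S38, S39 and S40 and 13.7, 14.1 and 27.6 in S35, S36 and S37. The ratio in S37 was 1.98 times the mean of S35 and S36 for complex I, 2.05 for complex III, 1.97 for complex IV and 1.97 for complex V.

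TPM is a share of a fixed total, so a larger mitochondrial share lowers all other values of a library. After the mitochondrial chromosome was removed and TPM rescaled, the sums were 12091, 12768 and 12993 in S38, S39 and S40 and 12826, 12731 and 16632 in S35, S36 and S37. S37 was then 1.30 times the mean of S35 and S36, and the other 5 libraries lay within a narrow range. By complex this ratio was 1.34 for complex I, 1.14 for complex II, 1.40 for complex III, 1.35 for complex IV and 1.21 for complex V. The same ratio was 1.36 for cytosolic and 1.23 for mitochondrial ribosomal protein genes.

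**Figure D4:**
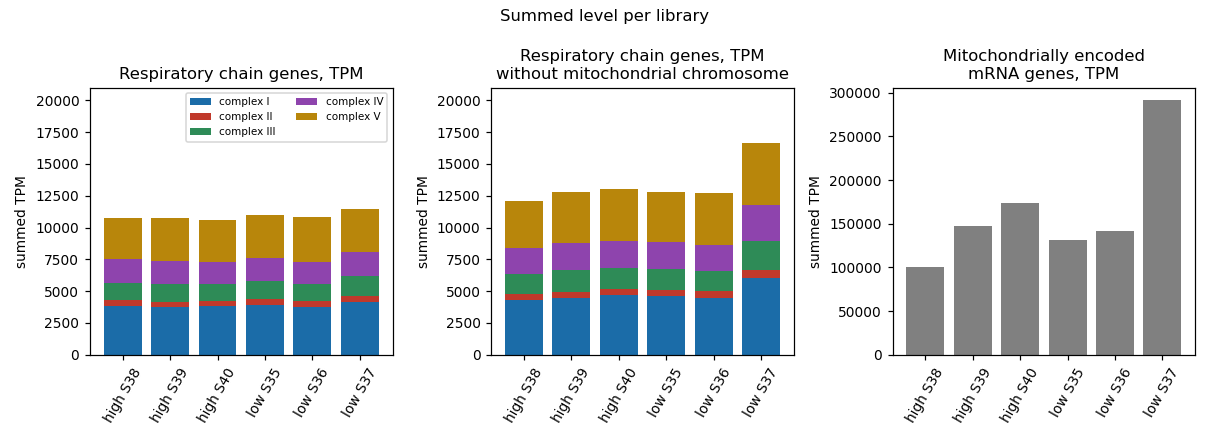
Summed TPM per library of the respiratory chain genes by complex as deposited (left), after rescaling without the mitochondrial chromosome (middle), and of the 13 mitochondrially encoded mRNA genes (right, own axis). S37 is 1.05, 1.30 and 2.13 times the mean of S35 and S36 in the 3 panels.

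Gene by gene, S37 was the highest of the 6 libraries for 30 of the 76 tested genes (39.5%) and the lowest for 12. Over all 11055 tested nuclear protein-coding genes it was the highest for 657 (5.94%) and the lowest for 7128 (64.5%). The difference of S37 from the mean of S35 and S36 on the log2(TPM + 1) scale had a median of 0.08 over the respiratory chain genes and -0.40 over the nuclear protein-coding genes. After rescaling without the mitochondrial chromosome the medians were 0.39 and -0.12, and S37 was highest for 60 of the 76 genes (78.9%) and for 1974 of the 11055 (17.9%). Ribosomal protein genes also had high shares. S37 was highest for 54.9% of the cytosolic ones as deposited and 89.0% rescaled. For the mitochondrial ones the shares were 32.9% and 68.4%. The medians by complex, as deposited, were 0.15 for complex I, -0.09 for complex II, 0.22 for complex III, 0.05 for complex IV and 0.22 for complex V.

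The genes did not move as 1 block in S37. The highest differences were those of genes with a short coding sequence, 0.69 for NDUFB2, 0.67 for ATP5MD, 0.67 for ATP5F1E and 0.65 for COX7B. ATP5MD, a small membrane subunit of the ATP synthase, was at 334 and 323 TPM in S35 and S36 and at 523 TPM in S37. The lowest were those of genes with a long coding sequence, -0.68 for NDUFS1, -0.56 for ATP5F1B and -0.52 for UQCRC2. The longest coding length in GENCODE 29 and the difference had a Spearman correlation of -0.63 over the 76 genes and -0.37 over the 11055 genes. With the deposited gene length, the one that TPM uses, the correlations were -0.27 and -0.28. NDUFB2 (4447 bases) and ATP5F1E (5126 bases) are longer than ATP5F1B (2322 bases) by that length. These points are genes of the same 3 libraries and not independent replicates.

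By coding length, the median difference was 0.39 for the 19 respiratory chain genes of up to 300 bases, 0.15 for 25 genes of 300 to 500 bases, 0.02 for 21 genes of 500 to 1000 bases and -0.35 for 11 genes with longer coding sequences. All 11 of these were below 0. The other nuclear protein-coding genes had medians of 0.13, -0.02, -0.27 and -0.47 in the same classes. Cytosolic ribosomal protein genes had 0.37, 0.28, -0.01 and -0.49 (11, 34, 35 and 2 genes), and mitochondrial ribosomal protein genes 0.26, 0.25, -0.02 and -0.29 (2, 23, 40 and 11 genes). The respiratory chain genes were above the other nuclear genes in each class, and so were the mitochondrial ribosomal protein genes. The ribosomal protein genes of the cytosol were close to the respiratory chain genes in the shortest class. From 300 to 500 bases both ribosomal sets lay above the respiratory chain genes (0.28 and 0.25 against 0.15). From 500 to 1000 bases the medians of these sets were close. For longer coding sequences the mitochondrial ribosomal set was the highest (-0.29 against -0.35). The part that gene length, depth or RNA quality of S37 has in these differences was not tested.

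**Figure D5:**
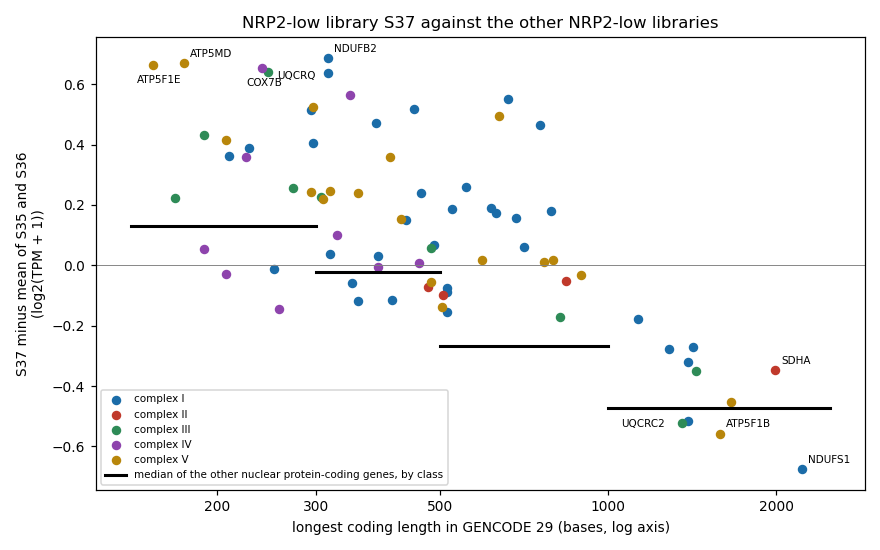
Difference of S37 from the mean of S35 and S36 (log2(TPM + 1)) against the longest coding length in bases (log axis) for the 76 tested genes, coloured by complex. Black lines show the median of the other nuclear protein-coding genes in 4 length classes (0.13, -0.02, -0.27 and -0.47), and the points fall from short to long coding sequences.

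The other genes of the pathway were taken from lists. The list outside the name rule held subunit genes and some related genes. Of its 8 tested genes, none passed the test, and their median log2 fold change was 0.02. Among them CYCS, cytochrome c itself, was at 304 to 324 TPM in NRP2-high and 344 to 356 TPM in NRP2-low libraries, without overlap (log2 fold change -0.16, limma adjusted p = 0.895). NDUFA4, a complex IV subunit despite its name, was at 132, 148 and 134 TPM against 114, 112 and 195 TPM (log2 fold change 0.02, limma adjusted p = 0.991). C15orf48, whose product can take the place of NDUFA4 in complex IV, was at 0.781, 0.518 and 0.232 TPM in NRP2-high and 122, 120 and 134 TPM in NRP2-low libraries. It fell in NRP2-high (log2 fold change -6.40, SE 0.20, limma adjusted p = 2.15e-06), with groups far apart.

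No assembly factor passed the test, of 17 tested for complex I, 4 for complex II, 6 for complex III, 22 for complex IV and 4 for complex V. Their median log2 fold changes were 0.01, 0.30, -0.09, 0.00 and -0.00. For complex II the values were 0.04 for SDHAF1 and 0.56 for SDHAF3 (limma adjusted p = 0.974 and 0.722), which assist the maturation of SDHB. SDHAF4, which assists SDHA and was chosen after its values were seen, was at 0.59 (limma adjusted p = 0.872), and SDHAF2, which assists the flavination of SDHA, at -0.15 (limma adjusted p = 0.909). No regulator of mitochondrial biogenesis of 14 passed the test, with a median of 0.05. TFAM, which packages and transcribes mitochondrial DNA, was the most abundant, at 141 to 154 TPM in NRP2-high and 161 to 183 TPM in NRP2-low libraries (log2 fold change -0.21, limma adjusted p = 0.874).

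No enzyme of the tricarboxylic acid cycle passed the test among 14, with a median of 0.11. S37 was the lowest library for 13 of these 14, against 12 of the 76 respiratory chain genes and 64.5% of the 11055 tested nuclear protein-coding genes. The median coding lengths were 1358, 454 and 1419 bases in turn, and a part of coding length in these counts was not tested. Of 6 tested genes for other electron donors to ubiquinone, none passed, with a median of 0.10. SQOR, which oxidises sulfide and passes the electrons to ubiquinone, was at 24.3, 23.5 and 10.2 TPM in NRP2-high and 48.2, 44.6 and 28.8 TPM in NRP2-low libraries. The groups of SQOR did not overlap (log2 fold change -1.09, SE 0.34, limma adjusted p = 0.409), and its log2 fold change was -0.71 without S40. Genes of the cytosolic and mitochondrial ribosome had medians of -0.05 over 82 and -0.06 over 76 tested genes, next to the -0.05 of the respiratory chain genes, and none passed the test.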

How the data were processed

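The 6 libraries of NRP2-sorted cells were analysed from the table of TPM values deposited by the authors, which lists 27958 genes, 15279 of them protein coding, with their deposited gene lengths in bases. The submitters' processing notes name the build hg38 (GRCh38.p12) and, as tools without a role, featureCounts 1.5.2 and DESeq2 1.20.0. The aligner, the library kit and its strandedness were not given in the sources used here. All 27958 identifiers, starts and lengths (as the union of exons) match GENCODE 29. The authors' TPM multiplied by length gave whole reads for 100% of non-zero values at a tolerance of 0.001, and the depth comes from these, 17551302 to 30726744 reads per library. The word for the group in each column name gave the group of a library, since no label holds the S numbers. Some genes are not reported by name here.

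The 15214 genes that reached a TPM of 1 in 3 or more libraries were kept. Values were log2(TPM + 1), a scale that understates changes of low genes, and the groups were compared with limma 3.58.1 in R 4.3.3 (lmFit, eBayes with a variance trend, two-sided, all 6 libraries, no covariate). P-values were adjusted by Benjamini-Hochberg over all genes kept, with a threshold of 0.05. The fit was run on simulated reads with known fold changes as a check of the code. The simulation held no library with a raised mitochondrial share, so it cannot show how S37 affects the results. Python 3.11.15, pandas 2.3.3 and numpy 2.4.6 were used for tables and matplotlib 3.10.9 for figures. Alternatives were a pseudocount of 0.1, no filter, each library left out, TPM rescaled without the mitochondrial chromosome, median log ratio scaling, no variance trend, and voom on recovered reads.

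The genes, lists and tests were chosen with earlier results of these data known. Full values are given for respiratory chain genes past the threshold, the most abundant of each complex, the 3 highest and 3 lowest log2 fold changes, the c subunit genes, the isoform genes and ATP5IF1. From each other list, called genes and up to 2 of the most abundant could be named, and genes named outside the rule were chosen after their values were seen. Overlap of 46 of the 81 genes with exons of other genes was counted from GENCODE 29, for 26 of them on the same strand.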

Additional observations from a re-analysis of the deposited data

How the results depend on the processing

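No paired analysis was possible because the columns of the table carry no replicate number of the labels. The count of respiratory chain genes past the threshold was 0 as reported and 0 with each library left out, and it was 1 with median log ratio scaling and 1 with voom on recovered reads, SDHA both times. The median log2 fold change of the 76 genes was -0.05, with -0.064 to 0.0023 when a library was left out, -0.13 after rescaling without the mitochondrial chromosome, -0.17 with median log ratio scaling and -0.17 with voom. Median log ratio scaling moved the median of all genes from 0.10 to -0.03. Relative to all genes the median of the 76 stayed at -0.14 by construction, since this scaling shifts all genes of a library alike. In the fit without S37 the median relative to all genes was 0.01. Of 180 alternative values for 15 genes reported in full, 164 kept their direction and side of the threshold, 2 passed the threshold (SDHA) and 14 changed sign. With a library left out, COX7C ran from -0.12 to 0.027, ATP5F1B from -0.22 to 0.071, ATP5MC3 from -0.059 to 0.055 and ATP5IF1 from -0.070 to 0.11. With rescaling, median log ratio scaling and voom, ATP5MC3 was at -0.086, -0.12 and -0.12 and ATP5IF1 at -0.066, -0.10 and -0.082. Alternatives chosen after seeing the data were those for S37 and for groups without overlap. The median difference of S37 was 0.08 as reported, 0.39 rescaled and 0.45 with median log ratio scaling. S37 was highest for 30, 60 and 68 of the 76 genes in turn. Over the 11055 tested nuclear protein-coding genes the first 2 shares were 5.94% and 17.9%. The third share is not given. Median log ratio scaling raised all values of S37, so the count of 68 is not read as particular to these genes. NRP2-high lay above NRP2-low for 2, 0 and 1 genes (8.83%, 8.0% and 6.59% of all genes) and below for 6, 6 and 6 (3.14%, 5.33% and 7.11%). Over all genes, 127 passed the threshold, 74 without a filter, 43 to 97 with a library left out and 211 with voom. The cause of these changes was not tested. With 3 libraries a group, the 95% interval on the log2(TPM + 1) scale stayed within a 1.5-fold change for 54 of the 76 genes.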
